A study of Mus musculus with 9 samples.

Results

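AMP-activated protein kinase (AMPK) is assembled from 1 catalytic alpha, 1 beta and 1 gamma subunit, each of which mice encode in more than 1 gene. The 10 genes described here are its 7 subunit genes and the 3 genes of the LKB1 complex, the kinase Stk11 (LKB1), the pseudokinase Strada and the scaffold Cab39 (MO25). They were taken as all rows of the deposited count tables whose Ensembl identifier carries one of these symbols, 10 of 49315 genes, and all 10 had enough counts to be tested. Brown adipose tissue, the heat-producing fat depot of mammals, came from male diet-induced obese C57Bl/6J mice of 14 weeks that had acclimated for 3 weeks. They were housed singly, below thermoneutrality, and fed a 60% high fat diet until they weighed about 50 g. Vehicle (4 mice) or cotadutide (5 mice) was then injected under the skin on each of 28 days, and the dose is not given in the sources used here. Cotadutide is a peptide drug that activates both the GLP-1 receptor and the glucagon receptor. Diet, strain, sex and housing were shared by both groups, no lean or untreated mice were analysed here, and each library of polyadenylated RNA came from 1 mouse.

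AMPK senses the energy state of a cell: AMP and ADP bind the gamma subunit, and LKB1 or the calcium-dependent kinase CaMKK2 phosphorylates the activation loop of the alpha subunit. Active AMPK phosphorylates acetyl-CoA carboxylase and other enzymes, which slows lipid synthesis and favours fatty acid oxidation, and in brown fat it is known for a part in mitochondrial upkeep and thermogenesis. Prkaa1 and Prkaa2 encode the catalytic alpha1 and alpha2, Prkab1 and Prkab2 the scaffolding beta1 and beta2, and Prkag1, Prkag2 and Prkag3 the nucleotide-binding gamma1, gamma2 and gamma3. Skeletal muscle is rich in alpha2 and beta2, and gamma3 is found mainly there.

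The subunit isoforms did not all move in the same direction. Among the subunits, Prkab1, Prkag1 and Prkag2 rose under cotadutide, by 1.32-fold, 1.36-fold and 1.79-fold, whereas Prkaa2 and Prkag3 fell, by 1.60 and 3.37 times. Stk11 rose 1.28-fold and Cab39 1.21-fold. Prkaa1, Prkab2 and Strada did not pass the threshold, a Benjamini-Hochberg adjusted p of 0.05 by edgeR's quasi-likelihood test over 14747 genes. That is 5 members higher and 2 lower of 10, against 18.6% of all genes tested that passed in either direction, 9.3% higher and 9.34% lower. No vehicle library overlapped a cotadutide library for these same 7 members, 5 higher and 2 lower, against 15.8% of all genes (8.06% higher and 7.79% lower). The median log2 fold change of the members was 0.17, beside 0.003 over all genes tested. These members were chosen with earlier results of these data known, so the counts describe them and no test of the list was made.

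The start regions of Prkaa2, Prkab2 and Prkag3, the subunits with lower mean levels under cotadutide, are shown beside 1 of the 3 starts of Prkag2, the member that rose most. Each is the 250 bases upstream of a transcript start in RefSeq's table for GRCm38.p6, 5′ to 3′ on the strand of the gene. All 10 members matched that table with 12 windows, 3 of them for Prkag2, and counts per gene do not tell which Prkag2 start was used. Capitals mark matches, on either strand, to 8 motifs: the GC box GGGCGG, the box CCAAT, the TATA box, the E box CAGCTG bound by myogenic factors, the MEF2 core TATTTTTA, the ERR element TNAAGGTCA, the cyclic AMP response core TGACG and the NRF1 core. The TATA box was searched as TATAAA. The printed Prkag2 and Prkag3 windows lie inside the spans of their genes in the files. The Prkab2 window runs past the first base of its gene (97658193). The Prkag2 window was picked for printing after its matches were seen. Another Prkag2 start inside the gene has 1 GC box and no CCAAT or ERR match in its window (chr5:24908510-24908759). The window of the outermost Prkag2 start (chr5:25100643-25100892) has 2 GC boxes, 1 CCAAT match and no ERR match.
Prkaa2 (chr4:105109899-105110148, minus strand): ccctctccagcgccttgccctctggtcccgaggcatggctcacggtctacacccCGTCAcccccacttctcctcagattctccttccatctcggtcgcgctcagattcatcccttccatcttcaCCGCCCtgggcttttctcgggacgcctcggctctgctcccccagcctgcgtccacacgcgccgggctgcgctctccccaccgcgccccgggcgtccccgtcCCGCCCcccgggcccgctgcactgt
Prkab2 (chr3:97657962-97658211, plus strand): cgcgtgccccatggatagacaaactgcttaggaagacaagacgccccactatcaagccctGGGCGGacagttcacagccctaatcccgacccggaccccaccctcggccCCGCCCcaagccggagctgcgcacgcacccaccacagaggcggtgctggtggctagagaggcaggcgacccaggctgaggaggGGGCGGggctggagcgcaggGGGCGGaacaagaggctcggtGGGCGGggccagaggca
Prkag3 (chr1:74748956-74749205, minus strand): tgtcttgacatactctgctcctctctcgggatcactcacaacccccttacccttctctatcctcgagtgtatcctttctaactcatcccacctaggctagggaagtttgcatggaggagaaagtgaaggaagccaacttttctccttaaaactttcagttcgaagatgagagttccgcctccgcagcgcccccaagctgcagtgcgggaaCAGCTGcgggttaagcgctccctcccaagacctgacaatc
Prkag2, 1 of 3 starts (chr5:24995754-24996003, minus strand): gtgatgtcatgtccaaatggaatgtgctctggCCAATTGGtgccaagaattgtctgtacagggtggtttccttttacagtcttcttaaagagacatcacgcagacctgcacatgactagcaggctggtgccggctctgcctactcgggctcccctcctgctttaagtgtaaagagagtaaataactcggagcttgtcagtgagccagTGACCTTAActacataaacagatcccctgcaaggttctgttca
The Prkaa2 and Prkab2 windows hold 2 and 5 GC boxes, a motif in 32.7% of 32851 RefSeq windows of this length, and Prkaa2 also has a TGACG (17.8% of windows). Prkag3 has no GC box and 1 CAGCTG, 40 bases upstream of the start (4271 of the 32851 windows). It was the 1 window of the 12 with that E box. The printed Prkag2 window has 2 CCAAT matches that overlap by 2 bases and 1 ERR element (1.14% of windows), 43 bases upstream. No member window held the TATA box (12.4% of windows), the MEF2 core (2.45%) or the NRF1 core (0.782%). A match is a description of the letters and does not show that a factor binds.

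Library totals were 16064055 to 25108534 counts in vehicle and 10759631 to 19459796 counts in cotadutide mice. Brown fat markers were present in every library, with Ucp1, the uncoupling protein, at 3757 CPM (counts scaled to the library total) or more. Skeletal muscle mRNA was present too and separated the groups: the summed level of 18 muscle markers was 25228 to 54030 CPM in vehicle and 5899 to 21935 CPM in cotadutide mice. Of these 18, 10 fell and 0 rose, none was at 0, and the most abundant were Myh4 and Acta1 (adjusted p = 0.0254 and 0.0465, edgeR). The sum of 15 brown adipocyte markers was 10407 to 14443 CPM in vehicle and 14481 to 20083 CPM in cotadutide mice, with 4 higher and 0 lower. Ucp1 did not pass and Cox8b did (adjusted p = 0.159 and 0.0247, edgeR). Of 12 macrophage markers 6 fell and 0 rose, and of 7 white adipocyte markers tested 3 fell and 0 rose. Retn, a white adipocyte marker, was 1.73-fold higher without passing (edgeR adjusted p = 0.119). Lyz2 fell and C1qa did not pass (adjusted p = 0.0476 and 0.149, edgeR), and Npr3 fell and Nnat did not pass (adjusted p = 0.0122 and 0.819, edgeR). Of 10 endothelial markers 1 rose, with Pecam1 and Cdh5 not called. The shares called were 55.6% of muscle, 26.7% of brown adipocyte, 50% of macrophage, 42.9% of white adipocyte and 10% of endothelial markers. Over all genes tested the share was 18.6%. No fibroblast, erythroid or neuronal and Schwann marker was called by edgeR, of 8, 5 and 5 tested, the most abundant being Col3a1 and Dcn, Hbb-bs and Hba-a1, and S100b. At an unadjusted p under 0.05, 3, 1 and 1 of them were lower, and DESeq2 called 2 fibroblast markers lower and 0 of the others. Vehicle mouse 4 stood apart from the other vehicle libraries: its chi-square per degree of freedom over gene counts was 55.5 to 73.2 against each of them, where they gave 13.8 to 19.95 among themselves. It had the most muscle mRNA, and its white adipocyte markers summed to 475 CPM against 1035 to 1162 CPM. Without it 5 members rose and 1 fell. Without vehicle mouse 1, 2 or 3, 2 rose and 1 fell, and without cotadutide mouse 2 or 3 it was 3 and 1 or 2 and 2. Without cotadutide mouse 4 or 5 it was 4 and 1 or 4 and 3. Calls over all genes moved in the same fits, from 1372 higher and 1378 lower of 14747 with all libraries. They were 47 and 92 of 14816, 212 and 391 of 14823 and 273 and 484 of 14923 without vehicle mouse 1, 2 and 3. Without vehicle mouse 4 they were 2116 and 1588 of 14846. Without cotadutide mouse 2, 3, 4 and 5 they were 465 and 349, 546 and 818, 1072 and 1088, and 1009 and 1389. In bulk tissue, fewer cells of a type and less RNA per cell cannot be told apart.

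The catalytic subunits differed from each other. Prkaa2 (ENSMUSG00000028518, chr4:105029874-105109890, minus strand, mm10 coordinates of the files) stood at 33.8, 39.1, 40.7 and 49.4 CPM in vehicle mice 1 to 4 and at 29.2, 21.4, 14.8, 29.6 and 32.4 CPM in cotadutide mice 1 to 5. Every vehicle library lay above every cotadutide library, and the group means were 40.8 ± 6.45 CPM (SD, n = 4) and 25.5 ± 7.22 CPM (SD, n = 5). The log2 fold change was -0.68 (SE 0.20, edgeR adjusted p = 0.0416). This call was lost when 1 library was left out in 6 of 9 fits, at an edgeR adjusted p of 0.0782, 0.0713, 0.0858 and 0.0949 without vehicle mouse 1, 2, 3 and 4, and of 0.112 and 0.0533 without cotadutide mouse 2 and 4. Prkaa1 (ENSMUSG00000050697, chr15:5143861-5181899, plus strand) stood at 27.7, 26.8, 29.9 and 30.3 CPM in vehicle and at 28.3, 28.2, 28.2, 34.6 and 31.9 CPM in cotadutide mice. Its groups overlapped (28.7 ± 1.69 CPM, SD, n = 4, against 30.3 ± 2.93 CPM, SD, n = 5), with a log2 fold change of 0.08 (SE 0.09, edgeR adjusted p = 0.554).

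**Figure D1:**
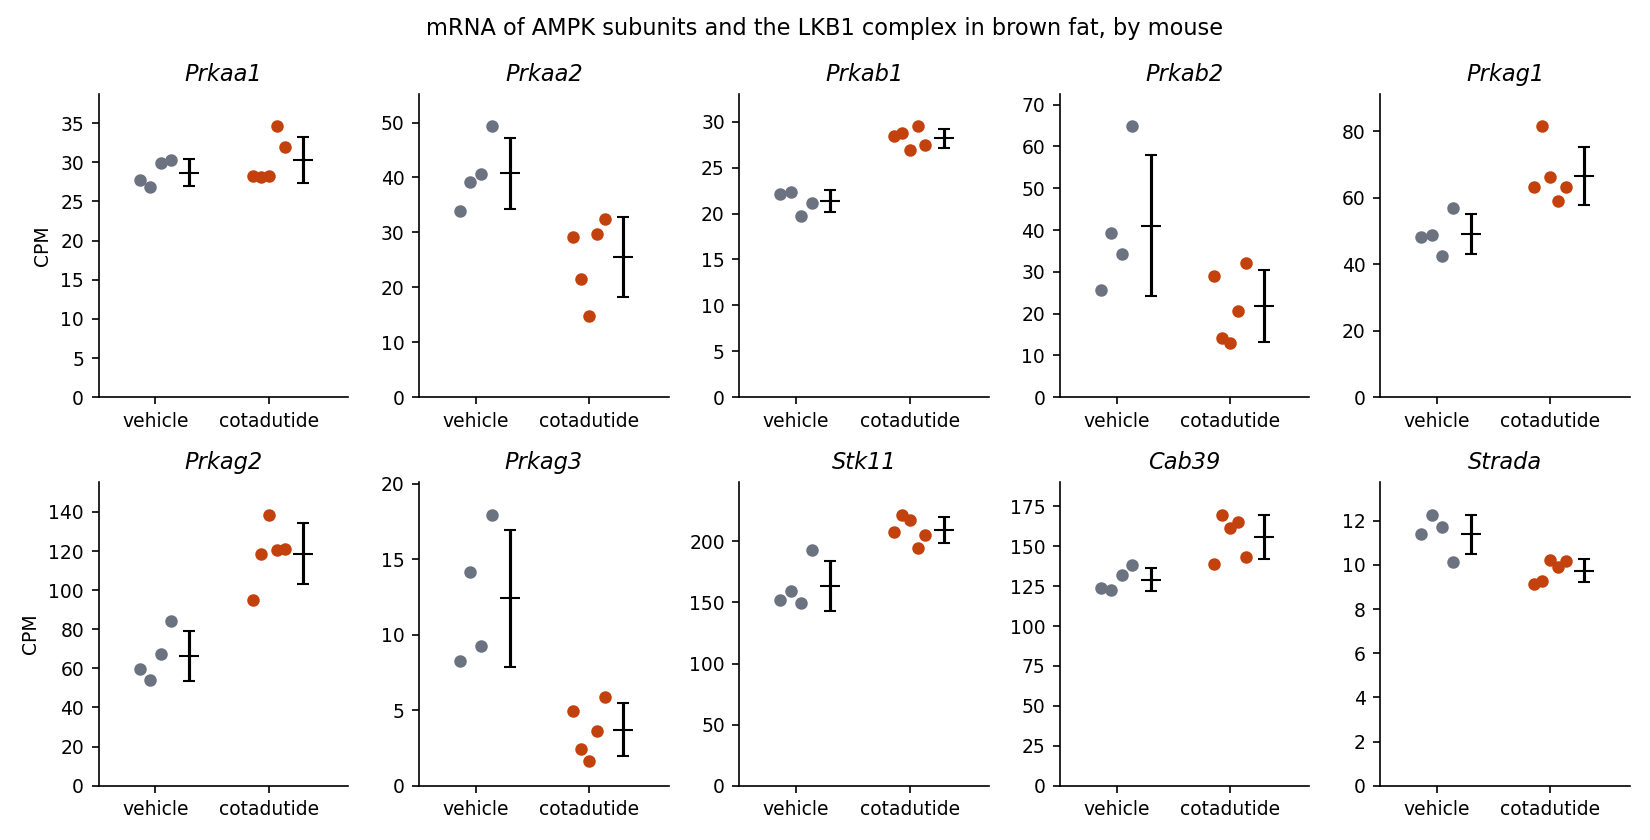
Level of each member in CPM (vertical axes, from 0) in the 4 vehicle mice (grey points) and 5 cotadutide mice (orange points), with mean and SD in black. Prkaa2 and Prkag3 are lower in all cotadutide mice than in any vehicle mouse, Prkab1, Prkag1, Prkag2, Stk11 and Cab39 are higher in all of them, and Prkaa1, Prkab2 and Strada overlap.

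The beta subunits also parted. Prkab1 (ENSMUSG00000029513, chr5:116013586-116024508, minus strand) stood at 22.1, 22.4, 19.8 and 21.1 CPM in vehicle and 28.4, 28.7, 26.9, 29.5 and 27.5 CPM in cotadutide mice. All 5 cotadutide libraries were higher than all 4 vehicle libraries. The means were 21.4 ± 1.19 CPM (SD, n = 4) and 28.2 ± 1.03 CPM (SD, n = 5), a log2 fold change of 0.40 (SE 0.07, edgeR adjusted p = 0.0147), and the call held in all 9 fits that left out 1 library. Prkab2 (ENSMUSG00000038205, chr3:97658193-97673812, plus strand) stood at 25.7, 39.3, 34.2 and 64.9 CPM in vehicle and at 29.0, 14.3, 13.1, 20.6 and 32.2 CPM in cotadutide mice. Vehicle mouse 4 was highest, and vehicle mouse 1 lay below cotadutide mice 1 and 5, so the groups overlapped. The log2 fold change of -0.91 (SE 0.31) did not pass (edgeR adjusted p = 0.0635). It passed by DESeq2 (adjusted p = 0.0215), with only genes of at least 1 CPM in at least 4 libraries kept (edgeR adjusted p = 0.0475) and without cotadutide mouse 5 (edgeR adjusted p = 0.0355).

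Among the gamma subunits, Prkag2 rose most of the 10 members and Prkag3 fell most. Prkag2 (ENSMUSG00000028944, chr5:24862744-25100642, minus strand) stood at 59.7, 54.3, 67.5 and 84.0 CPM in vehicle and at 94.9, 118, 139, 121 and 121 CPM in cotadutide mice, without overlap. Means were 66.4 ± 12.9 CPM (SD, n = 4) and 119 ± 15.6 CPM (SD, n = 5), and the log2 fold change of 0.84 (SE 0.14, edgeR adjusted p = 0.014) exceeded that of 97.8% of all genes tested. Prkag1 (ENSMUSG00000067713, chr15:98812798-98831508, minus strand) stood at 48.0, 48.8, 42.5 and 57.0 CPM in vehicle and at 63.0, 81.5, 66.3, 58.9 and 63.0 CPM in cotadutide mice. Its lowest cotadutide library was just above its highest vehicle library, and the log2 fold change was 0.44 (SE 0.11, edgeR adjusted p = 0.024). Without vehicle mouse 1, 2 or 3 or cotadutide mouse 3 its edgeR adjusted p was 0.0742, 0.069, 0.0778 and 0.0518. Of its 1638 exonic bases, 44.6% are shared with the antisense gene B130046B21Rik (2.87 CPM on average). The strand setting of the counting is not given in the sources used here, so reads of the 2 genes cannot be told apart there. Prkag2 shares 14.5% of its exonic bases with 2 antisense genes of at most 3.33 CPM.

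Prkag3 (ENSMUSG00000006542, chr1:74738922-74749221, minus strand) was the least abundant subunit in both groups. It stood at 8.23, 14.2, 9.24 and 18.0 CPM in vehicle and at 4.93, 2.43, 1.63, 3.63 and 5.89 CPM in cotadutide mice. Those values rest on 157 to 345 counts per vehicle library and on 23 to 96 counts per cotadutide library. The groups did not overlap (12.4 ± 4.53 CPM, SD, n = 4, against 3.70 ± 1.75 CPM, SD, n = 5). Its log2 fold change of -1.75 (SE 0.34, edgeR adjusted p = 0.0164) was below that of all but 0.502% of genes tested. The calls of Prkag2 and Prkag3 held in all 9 fits that left out 1 library, with edgeR adjusted p of at most 0.0467 and 0.0489.

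Upstream of AMPK, the kinase and its scaffold were the most abundant members in CPM. Stk11 (ENSMUSG00000003068, chr10:80115803-80130682, plus strand) stood at 152, 160, 149 and 193 CPM in vehicle and at 208, 222, 218, 195 and 205 CPM in cotadutide mice. Vehicle mouse 4 came close to the lowest cotadutide library, and the groups did not overlap. The log2 fold change was 0.36 (SE 0.09, edgeR adjusted p = 0.0267). Without vehicle mouse 1, 2 or 3 the edgeR adjusted p of Stk11 was 0.0881, 0.0835 and 0.0851, and without cotadutide mouse 2 or 3 it was 0.0571 and 0.0621. Cab39 (ENSMUSG00000036707, chr1:85793441-85851576, plus strand) stood at 124, 123, 132 and 138 CPM in vehicle and at 139, 170, 162, 165 and 143 CPM in cotadutide mice. Its highest vehicle and lowest cotadutide libraries were 138.05 and 138.70 CPM, and its call was the closest to the threshold (edgeR adjusted p = 0.049, log2 fold change 0.27, SE 0.09). It was lost in 7 of 9 fits that left out 1 library, at an edgeR adjusted p of 0.138, 0.155 and 0.111 without vehicle mouse 1, 2 and 3 and of 0.0985, 0.117, 0.109 and 0.0626 without cotadutide mouse 2, 3, 4 and 5. The edgeR adjusted p of Cab39 was also above the threshold with DESeq2 size factors (0.0541), without a filter on low counts (0.167), with the stricter filter (0.0607), without mitochondrially encoded genes in the totals (0.0602) and with a replicate block (0.0985). Strada (ENSMUSG00000069631, chr11:106163330-106202168, minus strand) was low, at 11.4, 12.3, 11.7 and 10.1 CPM in vehicle and 9.14, 9.28, 10.2, 9.90 and 10.2 CPM in cotadutide mice. The groups overlapped slightly and the difference did not pass (edgeR adjusted p = 0.111, log2 fold change -0.23, SE 0.09). Of its exonic bases, 5.42% are shared with other genes, among them Ccdc47 at 76.3 CPM.

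Compared per kilobase of gene model, Stk11, Prkag1, Cab39 and Prkag2 were the most abundant members in both groups. In vehicle mice the order was Stk11, at 35.7 ± 4.41 CPM per kilobase (SD, n = 4), then Prkag1 (30.0 ± 3.63), Cab39 (18.2 ± 1.02), Prkag2 (10.2 ± 2.00), Prkab2 (8.05 ± 3.31), Prkab1 (6.97 ± 0.387), Prkaa1 (6.16 ± 0.363), Prkaa2 (5.12 ± 0.809), Prkag3 (3.37 ± 1.23) and Strada (2.04 ± 0.162). The libraries of Prkag1 and Cab39, of Cab39 and Prkag2, and of Prkag3 and Strada did not overlap, and those of all other neighbours in this order did. In cotadutide mice Prkab2 (4.28 ± 1.69, SD, n = 5) ranked below Prkab1 (9.20 ± 0.336) and Prkaa1 (6.50 ± 0.630), and Prkag3 (1.01 ± 0.474) ranked below Strada (1.75 ± 0.0905). The lengths are those in the files, which join all annotated exons of a gene. With the longest coding transcript of GENCODE M21 in their place, Prkag2 was at 19.9 and 35.6 CPM per kilobase in the 2 groups, Cab39 at 33.9 and 40.9, and Cab39 ranked above Prkag1 (29.7 and 40.3). Prkab1 then ranked above Prkab2 in vehicle mice too (10.2 against 8.19), so the change in their order depends on the lengths used.

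The alpha2 isoform made up a smaller part of the alpha mRNA under cotadutide. Its share, by CPM per kilobase, was 41.6, 46.0, 44.3 and 48.8% in vehicle mice and 37.6, 30.8, 23.5, 33.3 and 37.2% in cotadutide mice. All 5 cotadutide mice were below all 4 vehicle mice. The log2 ratio of Prkaa2 to Prkaa1 counts, which does not depend on library scaling, was 0.50 ± 0.18 (SD, n = 4) and -0.30 ± 0.40 (SD, n = 5), a difference of -0.79 (exact two-sided permutation test, p = 0.0159, the smallest that 126 splits allow, and 0.0476 adjusted over the 3 ratios tested).

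A like shift was seen for beta2, whose share was 41.1, 51.4, 51.0 and 64.9% in vehicle mice and 38.1, 23.0, 22.6, 29.5 and 41.4% in cotadutide mice. Cotadutide mouse 5 lay just above vehicle mouse 1, and the others did not cross. The log2 ratio of Prkab2 to Prkab1 differed by -1.32 (0.86 ± 0.58, SD, n = 4, against -0.46 ± 0.58, SD, n = 5, exact two-sided permutation p = 0.0317, adjusted p = 0.0476). With 1 library left out, both ratios kept their sign. The unadjusted exact permutation p of the alpha2 ratio was then the smallest the splits allow in all 9 cases, 0.0357 without a vehicle mouse and 0.0286 without a cotadutide mouse. That of the beta2 ratio was at this limit without vehicle mouse 1 or cotadutide mouse 5, 0.0714 without vehicle mouse 2, 3 or 4 and 0.0571 without cotadutide mouse 1, 2, 3 or 4. Adjusted over the 3 ratios, the exact p of both passed only without cotadutide mouse 5 (0.0429). It was 0.0536, 0.107, 0.0714 and 0.107 without vehicle mouse 1, 2, 3 and 4, and 0.0857, 0.0571, 0.0857 and 0.0857 without cotadutide mouse 1, 2, 3 and 4. At these limits a single ratio cannot pass the adjusted threshold unless the others are low too.

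Gamma3 took 5.48, 9.15, 6.45 and 9.27% of the gamma mRNA in vehicle mice and 2.46, 0.962, 0.712, 1.77 and 2.73% in cotadutide mice. Gamma2 took 22.6, 19.9, 26.8 and 24.6% and 26.9, 26.6, 34.3, 33.5 and 31.8%. Cotadutide mouse 2 lay just below vehicle mouse 3 and cotadutide mouse 1 just above it, so the groups overlapped. With M21 lengths the mean gamma2 share was 36.8% in vehicle and 46.1% in cotadutide mice. The groups were then only just apart, at most 41.1% against at least 41.4%. The log2 ratio of Prkag2 to Prkag1 did not pass (difference 0.41, exact two-sided permutation p = 0.0794, adjusted p = 0.0794). Summed over its isoforms, gamma mRNA was 38.9 to 52.6 CPM per kilobase in vehicle and 54.5 to 68.7 in cotadutide mice. The alpha sums were 10.2 to 12.7 and 7.92 to 11.2, and the beta sums 12.3 to 19.6 and 11.3 to 15.3. These sums are descriptions without a test.

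**Figure D2:**
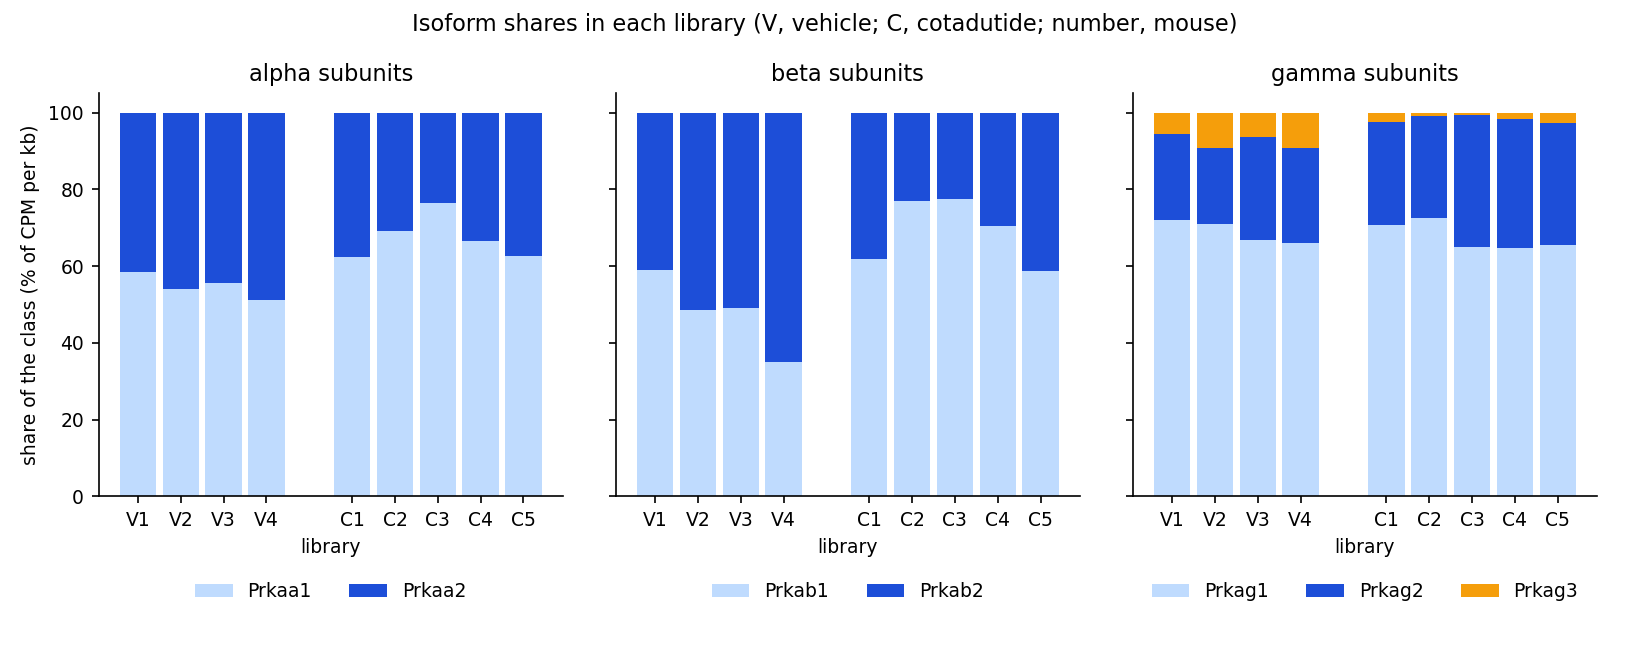
Share of each isoform in the alpha, beta and gamma mRNA of each library (vertical axis, percent of the summed CPM per kilobase), vehicle mice V1 to V4 and cotadutide mice C1 to C5. The Prkaa2 share is 41.6 to 48.8% in vehicle and 23.5 to 37.6% in cotadutide mice, and Prkag3 is at most 2.73% of the gamma mRNA in every cotadutide mouse.

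Levels of the 3 muscle-rich isoforms followed the muscle mRNA of the libraries. Ordered by the mean log2 CPM of the 18 muscle markers, vehicle mouse 4 was highest (10.95), then vehicle mice 2, 3 and 1 (10.26, 10.13 and 9.99), cotadutide mice 1, 5, 4 and 2 (9.73, 9.61, 9.09 and 8.57) and cotadutide mouse 3 (7.74). Prkag3 had the same order except that cotadutide mice 1 and 5 changed places. Prkaa2 and Prkab2 were also highest in vehicle mouse 4 and lowest in cotadutide mouse 3, with cotadutide mouse 2 next to lowest. With this muscle level as a covariate, the log2 fold change moved to 0.02 (SE 0.14) for Prkaa2, 0.16 (SE 0.21) for Prkab2 and -0.53 (SE 0.23) for Prkag3. It was 0.42 (SE 0.12) for Prkab1, 0.41 (SE 0.17) for Prkag1, 0.75 (SE 0.21) for Prkag2 and 0.39 (SE 0.15) for Stk11, near their values without it. Cab39 moved to 0.17 (SE 0.14). In that fit edgeR called 0 of 14747 genes, 2203 had an unadjusted p under 0.05, and the adjusted p of the 10 members ranged from 0.257 to 0.964. Muscle level and treatment separate the same libraries, and their parts in these differences cannot be told apart. The summed brown adipocyte markers were also higher in cotadutide mice, but only just apart (at most 14443 against at least 14481 CPM), and by mean log2 CPM vehicle mouse 4 (7.85) lay above cotadutide mouse 1 (7.82). Their part in the differences of the 5 members that rose was not tested.

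**Figure D3:**
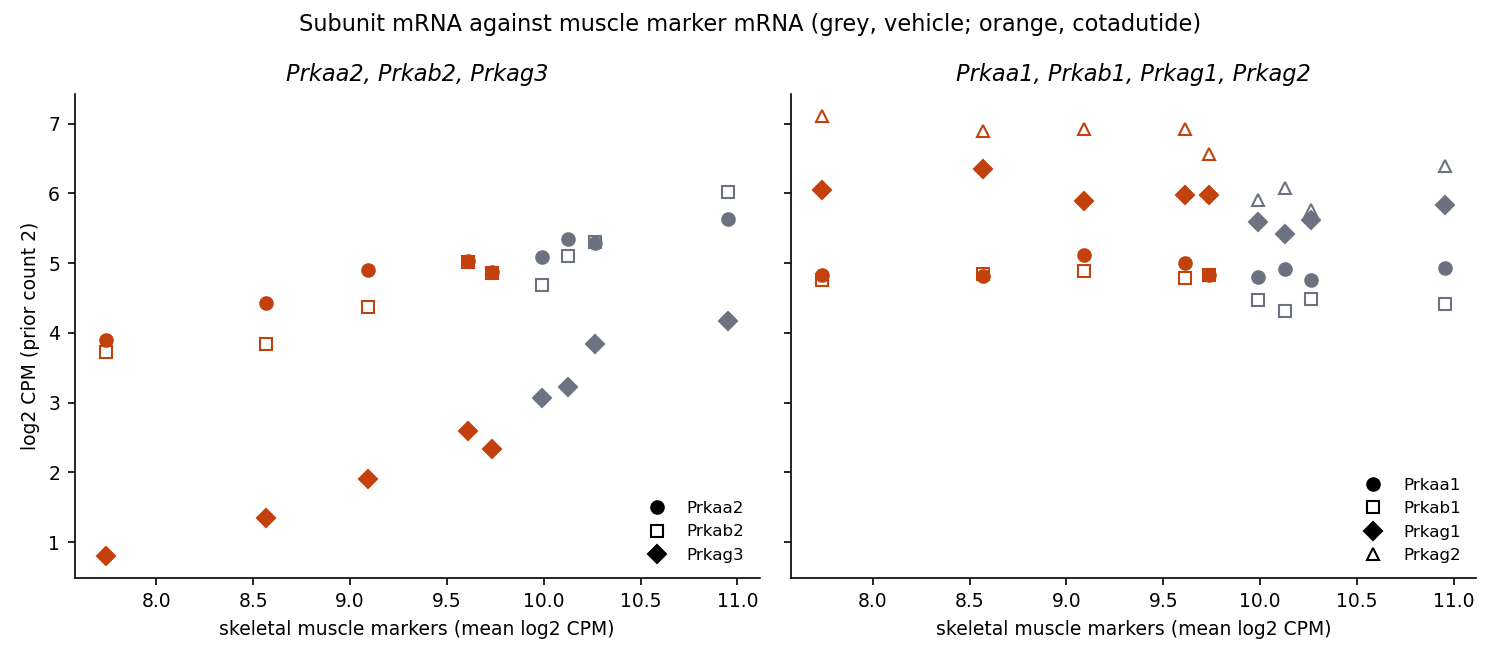
Log2 CPM of subunit mRNAs (vertical axis) against the mean log2 CPM of 18 skeletal muscle markers (horizontal axis), 1 point per library and gene, grey for vehicle and orange for cotadutide. In the left panel Prkaa2, Prkab2 and Prkag3 are lowest in the library with the least muscle mRNA (7.74) and highest in that with the most (10.95). The right panel shows Prkaa1, Prkab1, Prkag1 and Prkag2, none of which is highest in the library with the most muscle mRNA.

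**Figure D4:**
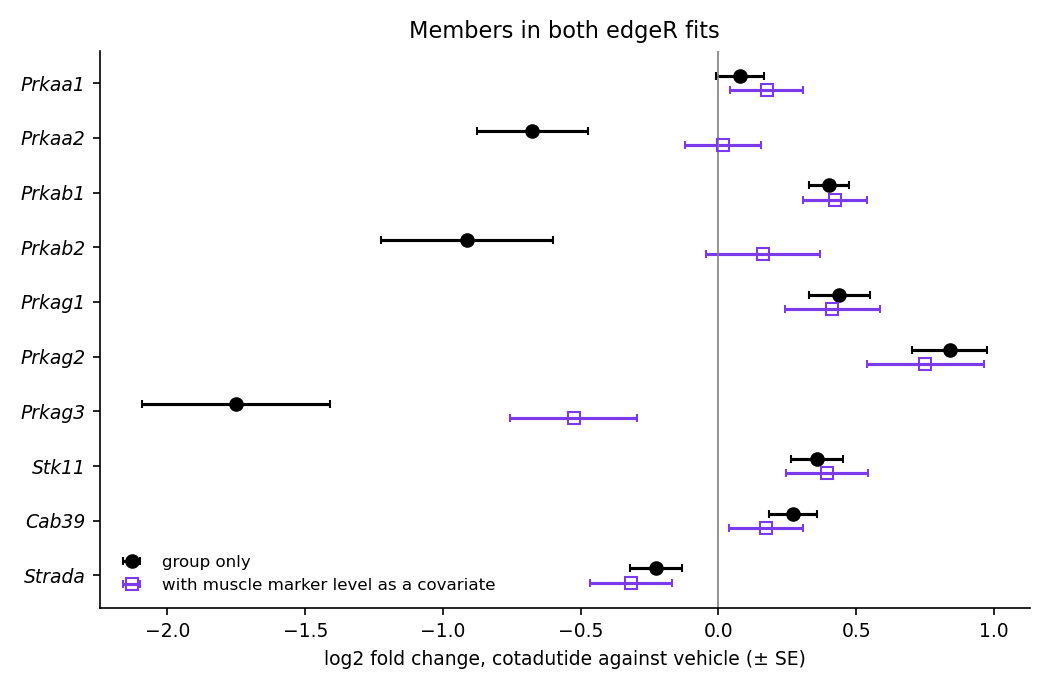
Log2 fold change, cotadutide against vehicle, with SE (horizontal axis) for each member, from the edgeR fit on group alone (black circles) and with the muscle marker level as a covariate (open squares). Prkaa2 moves from -0.68 to 0.02 and Prkab2 from -0.91 to 0.16, while Prkab1 stays at 0.40 and 0.42.

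By Pearson's r of log2 CPM over the 9 libraries, a description without a test among 12708 named protein-coding genes, Prkaa2 was most like Bves (r = 0.988), Srl (0.987) and Zfp651 (0.987). Bves and Srl encode striated muscle proteins, of the cell membrane and of the sarcoplasmic reticulum. All 3 were higher in vehicle than in cotadutide mice, with means of 11.9 against 5.15 CPM, 241 against 116 CPM and 38.2 against 23.6 CPM. Prkaa1 was most like Gprc5a (r = 0.919), Arel1 (0.916) and Tmem241 (0.911). These likenesses rest on few libraries that share the group difference.

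Genes of other kinases that act on AMPK and paralogs of Strada and Cab39 did not move as one. Of 5 such genes, 1 rose and 2 fell (median log2 fold change -0.28), a share of 60% called beside 18.6% of all genes tested. Camkk2, the calcium-dependent AMPK kinase, rose from 12.6 ± 1.96 CPM (SD, n = 4) to 19.1 ± 1.55 CPM (SD, n = 5), or 1.51-fold (edgeR adjusted p = 0.0152), and lost its call only without vehicle mouse 1 (edgeR adjusted p = 0.0539). Stradb, the paralog of Strada, fell 1.30 times (76.2 ± 5.69 against 58.5 ± 6.95 CPM, SD, n = 4 and 5, edgeR adjusted p = 0.0251), and Map3k7, which encodes TAK1, fell 1.22 times (edgeR adjusted p = 0.0324). The calls of Stradb and Map3k7 held in 5 and 4 of the 9 fits that left out 1 library. Camkk1 stood at 1.34 and 0.877 CPM and Cab39l, the paralog of Cab39, at 44.1 and 47.5 CPM, and neither passed (edgeR adjusted p = 0.115 and 0.232).

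Among 21 tested regulators of AMPK, 3 rose and 1 fell (median -0.04), a share of 19% called that is near the 18.6% of all genes. Ak1, the cytosolic adenylate kinase abundant in muscle, fell 1.68 times (282 ± 77.6 against 168 ± 48.2 CPM, SD, n = 4 and 5, edgeR adjusted p = 0.0419). Its log2 fold change was -0.75, and -0.005 with the muscle level as a covariate. Flcn, whose product folliculin restrains AMPK signalling, rose 1.29-fold (edgeR adjusted p = 0.0453), as did Cidea, a lipid droplet protein (1.42-fold, edgeR adjusted p = 0.0184). In the 9 fits that left out 1 library, the calls of Ak1, Flcn and Cidea held in 2, 2 and 6. Nmt1, which attaches the myristoyl group of the beta subunits, did not pass (1.17-fold, edgeR adjusted p = 0.0686).

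Of 12 tested AMPK-related kinases, which LKB1 also activates for the most part, 0 rose and 1 fell by edgeR (median 0.04). That is a share of 8.33% called, beside 18.6% of all genes tested. At an unadjusted p under 0.05, 2 were higher and 2 lower, beside 5268 of all 14747 genes in either direction. DESeq2 called 2 higher and 2 lower, beside 1619 higher and 1727 lower over all genes. The 1 called by edgeR was Nuak2, 1.88 times lower at a level of 2.35 ± 0.578 against 1.25 ± 0.268 CPM (SD, n = 4 and 5, edgeR adjusted p = 0.0262). Its call held in 6 of the 9 fits that left out 1 library. Sik3 and Sik1, salt-inducible kinases, were 1.21-fold and 1.51-fold higher without passing (edgeR adjusted p = 0.0531 and 0.0692), and neither did Nuak1 (1.53 times lower, 0.0658) nor Brsk2 (0.154).

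Genes of 40 AMPK substrates were split, with 2 higher, 6 lower and 32 not called (median -0.05). Acacb, the mitochondrial acetyl-CoA carboxylase, and Pnpla2, the lipase ATGL, rose 1.60-fold and 1.40-fold (edgeR adjusted p = 0.0156 and 0.0165). The genes that fell included the microtubule protein Clip1 (1.49 times, 92.8 ± 9.29 against 62.1 ± 10.0 CPM, SD, n = 4 and 5, edgeR adjusted p = 0.0167), the autophagy kinase Ulk2 (1.33 times, edgeR adjusted p = 0.0184) and the autophagy protein Atg9a (1.53 times, edgeR adjusted p = 0.0297). Of the 9 fits that left out 1 library, the calls of Acacb, Clip1 and Ulk2 held in 8, Pnpla2 in 6 and Atg9a in 4. Over the 4 lists 16 of 78 genes tested were called, 20.5%, which is near the 18.6% of all genes. Their counts moved with the libraries used, from 6 higher and 10 lower with all libraries. Without vehicle mouse 1 edgeR called 0 of the 78 (11 higher and 13 lower at an unadjusted p under 0.05). Without vehicle mouse 2 there were 2 higher and 2 lower, and without vehicle mouse 3 there were 2 and 3. Calls over all genes fell in these fits too, from 1372 higher and 1378 lower to 47 and 92, 212 and 391, and 273 and 484. Of the 78 genes, 10 were higher and 13 lower without vehicle mouse 4. Without cotadutide mouse 2 there were 5 higher and 2 lower, and without cotadutide mouse 3 there were 4 and 4. Over all genes, those fits gave 2116 higher and 1588 lower, 465 and 349, and 546 and 818.

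**Figure D5:**
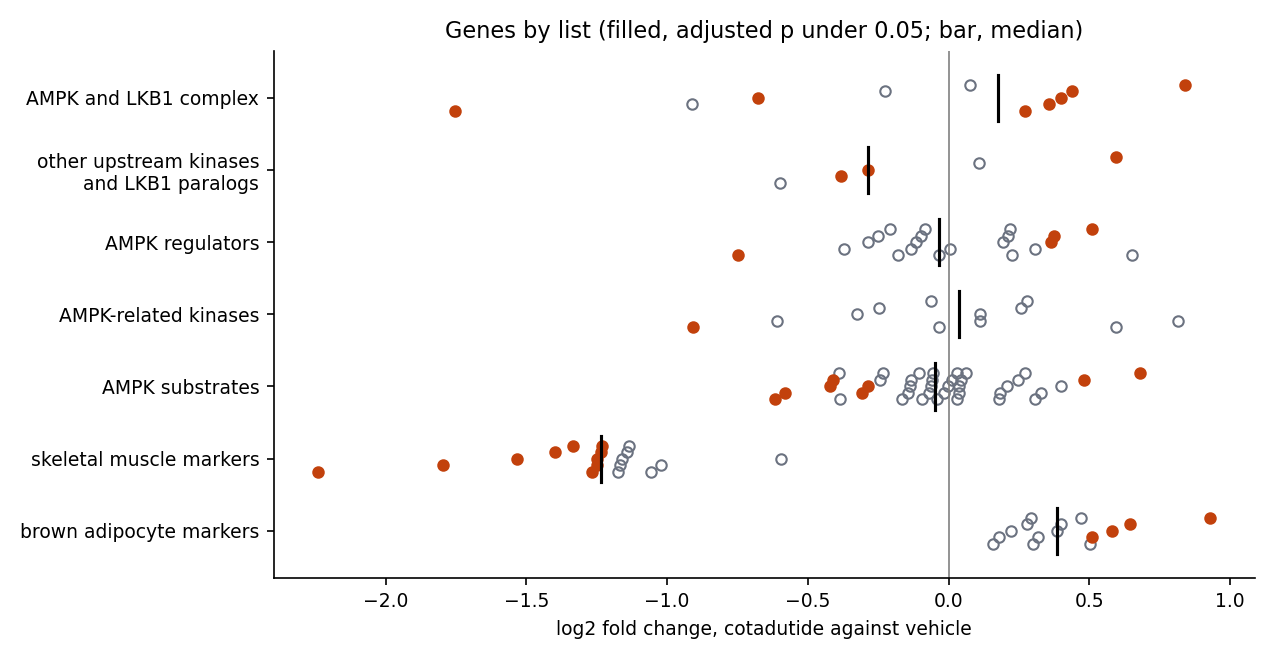
Log2 fold change, cotadutide against vehicle (horizontal axis), of the tested genes of 7 lists, filled where the edgeR adjusted p was under 0.05, with a bar at the median of each list. Medians of the AMPK regulators, related kinases and substrates are -0.04, 0.04 and -0.05, and that of the muscle markers is -1.23.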

How the data were processed

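Raw counts of reads per Ensembl gene, 1 table per library, are used as the authors deposited them. Per the submitters' processing notes, the build was mm10 and the tools were STAR 2.5.2b, Subread 1.5.2 with its featureCounts, Trimmomatic 0.36 and bcl2fastq 2.17. No source used here gives their settings or annotation. Symbols came from GENCODE M21 for 48970 of 49315 identifiers, and the other 345 took 0.031% of counts. The members and gene lists were chosen with earlier results of these data known.

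Genes were filtered with filterByExpr (14747 kept, 99.87% of counts) and scaled with TMM factors (0.915 to 1.06). CPM values use the scaled totals. They were tested with edgeR 4.0.16 (glmQLFit, robust, and glmQLFTest) in R 4.3.3 on all 9 libraries with group as the only term. SE is the log2 fold change over the square root of F. Isoform ratios used counts plus 0.5 and exact two-sided permutation over 126 splits, adjusted over 3 ratios. The fit was tested on simulated counts. Alternatives were DESeq2 1.42.0, limma-voom (limma 3.58.1), other filters and scalings, a muscle covariate, a replicate block and leaving out each library. Every pair of libraries in a group differed by more than counting noise (lowest chi-square per degree of freedom 12.7). Named were all members, from each AMPK list the 5 genes with the smallest adjusted p, the 3 genes most like Prkaa1 and Prkaa2, and the 2 most abundant markers per cell type. A few of these genes are not reported here.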

Additional observations from a re-analysis of the deposited data

How the results depend on the processing

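Calls over all genes, 1372 higher and 1378 lower, moved with the libraries used: from 47 to 2116 higher and from 92 to 1724 lower with 1 mouse left out. Without that mouse the members called ranged from 2 to 5 higher and 1 to 3 lower, and genes of the 4 AMPK context lists from 0 to 10 higher and 0 to 13 lower. The difference in the alpha2 log2 ratio ranged from -0.88 to -0.63 and the beta2 ratio from -1.53 to -1.07 (gamma2, 0.32 to 0.49), and the log2 fold change of Prkaa1 from -0.0002 to 0.1055, the first without cotadutide mouse 4. Without a filter on low counts, edgeR called 900 genes higher and 1264 lower of 28583. It called 4 members higher in that fit and 1 lower, Prkag3. With the muscle level as a covariate it called 0 genes in either direction, 0 members and 0 context genes, and Prkaa2 and Prkab2 changed sign to 0.0172 and 0.160. DESeq2 called 10 context genes higher and 11 lower, and over all genes it called 1619 higher and 1727 lower. The share of called genes that were higher was 49.9%, but 41.6% without a filter, 42.6% with the stricter filter and 43.0% without mitochondrially encoded genes in the totals. The median of all genes moved by less than 0.1 on the log2 scale in every fit. As a share in percent, the gamma2 difference passed, at 7.14 percentage points with the lengths of the files (adjusted exact permutation p = 0.0317) and 9.31 with M21 lengths (0.0238). These shares include Prkag3, which the ratio leaves out. The mouse numbers do not pair the samples (correlation of same-numbered deviations 0.135, -0.04, 0.023 and -0.011, and not every mouse correlated best with its own number). A replicate block on them gave 516 genes higher and 768 lower, 2 members higher, and 2 context genes higher and 4 lower. Over the 4 within-number differences of that block the alpha2 ratio was -0.87 and the beta2 ratio -1.49 (adjusted exact permutation p = 0.125 for each, the smallest 4 pairs allow). The cause of these changes was not tested. For Prkag3, 23 to 96 counts per cotadutide library limit the precision.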

Other observations

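The other members were compared with all genes in the same way as Prkaa1 and Prkaa2, a step chosen after the data were examined and given without a test. Prkag1 followed genes of mitochondrial complex I most closely over the 9 libraries: Ndufs3 (Pearson's r = 0.996, 396 CPM against 509 CPM, vehicle first), Ndufa9 (0.995, 593 and 744 CPM) and Ndufs8 (0.993, 323 and 461 CPM). Stk11 was most like Chid1 (0.995) and Mlycd (0.995), the latter encoding malonyl-CoA decarboxylase, which removes the product of acetyl-CoA carboxylase (145 and 224 CPM). Prkag3 was most like Mllt3 (0.991) and the tropomyosin gene Tpm1 (0.990, 1951 and 718 CPM). Cab39 was most like Pank1 (0.991), Ptprd (0.989) and Irf4 (0.989). Prkab2 was most like Rbfox1 (0.994), a splicing factor gene of muscle and neurons.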
